A study of Heliconius erato cyrbia and Heliconius erato demophoon with 32 samples.

Results

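The anterior hindwing of late pupae was compared between 2 subspecies of the butterfly Heliconius erato, the iridescent blue H. e. cyrbia of western Ecuador and the non-iridescent H. e. demophoon of Panama. The comparison used the 8 anterior hindwing libraries taken at 70% of pupal development, out of 32 pupal wing libraries from 16 animals of captive populations, and members were chosen by the tissue, stage and subspecies in the labels alone. H. e. cyrbia was represented by animals 9, 10, 11 and 12, all labelled male, and H. e. demophoon by animals 13, 14 and 16, labelled female, and animal 15, labelled male. The other 24 libraries were the main wing (forewing plus posterior hindwing) of the same animals and both regions of 8 further animals at 50% of development. With no female in the cyrbia group, sex and subspecies are partly confounded at this stage, and only the 1 demophoon male separates them within these 8 libraries.

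Butterfly wing colour comes from scales, which are cuticular outgrowths of epidermal cells that build ridges and lay down pigment during the pupal stage. Iridescent blue in Heliconius is structural and arises from layered ridges on the scale surface. The anterior hindwing, also called the androconial region, carries a different type of scale from the rest of the wing, and in male Heliconius it releases scent in courtship. In butterflies the female is the sex with unlike sex chromosomes, so that males carry a pair of Z chromosomes and females only a single Z.

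Counts were given per locus of a transcript assembly, and the loci have no gene names that could be paired with them here. Loci are therefore named by their assembly number (MSTRG), called annotated where they also carry a reference gene model and unannotated where they do not, and no function is given to any of them. For the same reason the tissue could not be checked against marker genes of scale cells or of other cell types. The 8 libraries held 15955785 (animal 11) to 68986011 (animal 14) counts, with 32.0% to 43.4% of them in the top 10 loci. Levels are given in CPM, counts scaled to the normalised library size. CPM is not corrected for length, so levels are compared between libraries for a locus and not between loci. In bulk tissue fewer cells of a type and less RNA per cell cannot be told apart.

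Of 16457 loci tested in the anterior hindwing, 1587 were differentially expressed (DE) between subspecies at 70% (9.64%, edgeR quasi-likelihood F test with a false discovery rate, FDR, below 0.05). More of them were lower in cyrbia than higher, with 1017 lower (6.18% of those tested) and 570 higher (3.46%). Per the study, the reads of a species were aligned to the reference genome of that species. Whether reads of both subspecies aligned to it equally well was not tested, and all counts carry this limit. Among the DE loci 880 of the lower and 480 of the higher ones differed by at least 2-fold, and 454 and 222 by at least 16-fold. In 1338 DE loci the 4 cyrbia libraries did not overlap with the 4 demophoon libraries, against 2982 (18.1%) of all loci tested. The median log2 fold change over all loci tested was 0. RLE factors in place of TMM gave 606 higher and 979 lower. Whichever animal was left out, fewer loci were DE, from 1034 (without animal 13, 318 of them higher) to 1279 (without animal 16). The loci higher in cyrbia then numbered from 315 (without animal 15) to 480 (without animal 9). These fits also had fewer libraries, so dependence on particular animals was not separated from the loss of replication.

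Much of the list came from loci that were barely present in 1 subspecies. A mean of at least 1 CPM in both subspecies was reached by 9781 loci, of which 666 were DE (6.81%), 235 higher and 431 lower in cyrbia. Their median absolute log2 fold change was 1.28, against 0.31 for all loci at that level, and 439 of them differed by at least 2-fold. The cyrbia and demophoon libraries did not overlap for 584 of the 666, which the DE call itself favours. Over all loci tested, at any level, the share without overlap was 18.1%, and it was not taken for the 9781 alone. Annotated loci made up 436 of the 666, but only 47 of the 197 DE loci that had a count of 0 in all 4 libraries of 1 subspecies and a count in all 4 of the other. Over all loci tested, 580 of 9434 annotated (6.15%) and 1007 of 7023 unannotated loci (14.3%) were DE. Of the 956 loci with a mean of at least 100 CPM over both subspecies, 50 were DE (5.23%), 17 higher and 33 lower in cyrbia.

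Some loci gave counts in all 4 animals of 1 subspecies and none in the other. There were 60 such loci with counts in cyrbia only (0.365% of those tested), of which 52 were DE, and 171 with counts in demophoon only (1.04%), of which 145 were DE. Whether reads of the subspecies without counts failed to align at these loci was not tested. The folds given for them are lower bounds set by 3 counts per library in the subspecies at 0, and cover counting error only. The annotated MSTRG.17738 on chromosome 17 had 30.1, 14.8, 22.3 and 22.3 CPM in cyrbia animals 9 to 12 and no count in any demophoon animal. It was at least 317-fold higher in cyrbia (22.4 ± 6.24 CPM, SD, n = 4, edgeR FDR 4.87e-06). The cyrbia animals lay within a narrow range, and the locus was also without a count in every demophoon library of the main wing at 70% and of the anterior hindwing at 50%, where cyrbia had 5.89 ± 1.64 CPM (SD, n = 4).

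The unannotated MSTRG.18552 on chromosome 18 was nearly constant in cyrbia, at 33.1, 38.5, 33.8 and 32.5 CPM, and had no count in demophoon (at least 489-fold higher, edgeR FDR 0.00842). At 50% its count was 0 in the anterior hindwing of cyrbia animal 2, whose main wing had 27.6 CPM, and 30.1 to 36.6 CPM in that of the others, while the main wing of animal 3 was at 0. A count of 0 in 1 region and of at least 50 in the other region of the same animal thus occurred in 2 of the 16 animals for MSTRG.18552. The annotated MSTRG.9861 on chromosome 10 had 4.35, 77.6, 1.70 and 6.94 CPM in cyrbia and none in demophoon, so that its bound of at least 321-fold for the mean rests mostly on animal 10 (edgeR FDR 0.00926). In the main wing of the same animals MSTRG.9861 was at 0, 2.66, 0 and 0.374 CPM, and its call in the anterior hindwing ended with sex as a covariate (edgeR FDR 0.0623).

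The unannotated MSTRG.17092 on chromosome 17 had the highest mean of the DE loci with a count in all 4 cyrbia animals and none in demophoon, with 43.3, 45.9, 32.8 and 38.5 CPM in cyrbia (at least 569-fold higher, edgeR FDR 2.74e-09). Its absence from demophoon did not hold in the other libraries. In the main wing of demophoon animals 13, 14, 15 and 16 it had 51.8, 87.0, 0 and 0 CPM, in that of cyrbia animal 11 it had 0, and at 50% the demophoon anterior hindwing had 36.8 ± 3.24 CPM (SD, n = 4). Such a switch between regions occurred in 3 of the 16 animals for MSTRG.17092, and its call ended when both regions were summed per animal (edgeR FDR 0.372). Over the whole comparison 452 of the loci tested (2.75%) and 31 of the 1587 DE loci (1.95%) switched between regions in this way in at least 1 animal, as did 13 of the 197 loci at 0 in 1 subspecies. Without these loci 1556 DE loci were left. Whether reads were divided between adjacent loci in a different way in different libraries was not tested.

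Conversely, 4 loci led those with counts in demophoon only. The unannotated MSTRG.13449 on chromosome 13 had 41.0, 21.1, 26.7 and 26.8 CPM in demophoon animals 13 to 16 and no count in cyrbia at either stage or in either region. It was at least 254-fold lower in cyrbia (edgeR FDR 0.000116), and the demophoon animals were of the same order, the male included. The annotated MSTRG.12538 on chromosome 12 had 63.5, 52.2, 12.7 and 12.9 CPM in demophoon and none in cyrbia (at least 310-fold lower, edgeR FDR 0.000539). It was low in both subspecies at 50%, with at most 0.214 CPM in any anterior hindwing library.

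MSTRG.14230 and MSTRG.19449 varied widely among the demophoon animals. The unannotated MSTRG.14230 on chromosome 14 had 299, 57.1, 222 and 0.892 CPM in demophoon animals 13 to 16 and no count in cyrbia (at least 1272-fold lower for the mean, edgeR FDR 0.0018). The annotated MSTRG.19449 on chromosome 19 had 54.2, 51.5, 29.8 and 0.594 CPM and no count in cyrbia (at least 299-fold lower for the mean, edgeR FDR 0.00159). In both loci animal 16, a female, was far below the other demophoon animals, and the main wing of animal 16 was low as well, at 1.04 CPM for MSTRG.14230 and 0.382 CPM for MSTRG.19449. At 50% the demophoon anterior hindwing had 65.8 to 129 CPM of MSTRG.19449 but at most 0.737 CPM of MSTRG.14230.

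Among loci expressed in both subspecies at a mean of at least 1 CPM and with no overlap between groups, the largest differences upward in cyrbia were at MSTRG.8682, MSTRG.21688, MSTRG.5601, MSTRG.9417 and MSTRG.10205. The annotated MSTRG.8682 on chromosome 10 had 45.5, 24.3, 103 and 20.3 CPM in cyrbia and 1.5, 0.875, 1.35 and 1.83 CPM in demophoon. All 4 cyrbia animals were high, most of all animal 11, and the difference was 34.7-fold (log2 fold change 5.12, SE 0.68, edgeR FDR 0.000387). In the 50% animals it had 1.49 ± 1.22 CPM in cyrbia and 1.12 ± 0.527 CPM in demophoon (SD, n = 4 each, edgeR FDR 0.696).

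The annotated MSTRG.5601 on chromosome 6 had 86.8, 56.4, 118 and 87.8 CPM in cyrbia and 4.98, 4.67, 5.75 and 3.68 CPM in demophoon. The log2 fold change was 4.19 (SE 0.52, edgeR FDR 0.000231), and 3.92 in males alone. The demophoon male, at 5.75 CPM, was the highest of its group. Its place below every cyrbia animal was set by the choice of loci with no overlap between groups. At 50% both subspecies were low, at 2.24 ± 1.99 and 3.45 ± 1.66 CPM (SD, n = 4 each). The interaction of subspecies and stage passed the threshold for MSTRG.5601 (4.81 on the log2 scale, edgeR FDR 0.0195) and for MSTRG.8682 (4.70, edgeR FDR 0.0466), so that for these loci the subspecies difference itself was larger at 70%.

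The annotated MSTRG.10205 and the unannotated MSTRG.9417, both on chromosome 10, were higher in cyrbia at both stages. MSTRG.10205 had 89.8, 237, 187 and 295 CPM in cyrbia at 70% and 22.0, 7.48, 14.8 and 15.0 CPM in demophoon (log2 fold change 3.77, SE 0.48, edgeR FDR 0.000298). MSTRG.9417 had 50.8, 180, 208 and 249 CPM against 15.9, 16.2, 4.98 and 2.49 CPM (log2 fold change 4.11, SE 0.71, edgeR FDR 0.00248). At 50% the log2 fold changes were 2.74 and 3.20 (edgeR FDR 0.00182 and 0.00814).

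The annotated MSTRG.21688 on the Z chromosome had 66.3, 50.6, 19.6 and 30.4 CPM in cyrbia and 0.328, 2.53, 0 and 2.93 CPM in demophoon (log2 fold change 4.82, SE 1.26, edgeR FDR 0.0259). At 50% demophoon was at 36.1 ± 5.26 CPM and cyrbia ranged from 2.91 to 282 CPM. The call at 70% ended without animal 13 (edgeR FDR 0.0724) and without animal 9 (0.0502).

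Downward in cyrbia, the largest differences of this kind were at MSTRG.12543, MSTRG.19216, MSTRG.20200, MSTRG.15837 and MSTRG.5984. The unannotated MSTRG.5984 on chromosome 7 was the most even, with 1.17, 0.495, 0.440 and 3.49 CPM in cyrbia and 81.4, 81.2, 83.1 and 76.0 CPM in demophoon. The demophoon animals hardly differed from each other and the male was the highest (log2 fold change −5.82, SE 0.79, edgeR FDR 0.000453). With sex as a covariate its log2 fold change was −5.99 (edgeR FDR 0.00199).

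The annotated MSTRG.20200 on chromosome 19 had 1.56, 1.55, 0.755 and 0.906 CPM in cyrbia and 171, 106, 101 and 141 CPM in demophoon, and was 109-fold lower in cyrbia (log2 fold change −6.74, SE 0.76, edgeR FDR 9.85e-05). The annotated MSTRG.19216, also on chromosome 19, had 2.32, 0.587, 0.503 and 4.09 CPM against 411, 162, 94.1 and 340 CPM (log2 fold change −7.05, SE 0.89, edgeR FDR 0.000261). At 50% MSTRG.20200 already differed (−5.81, edgeR FDR 0.00025), whereas MSTRG.19216 was at most 1.07 CPM in every anterior hindwing library of either subspecies.

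The unplaced and unannotated MSTRG.15837 was uneven in demophoon, with 170, 3.06, 14.6 and 63.8 CPM, and stood at 0.953, 1.92, 1.38 and 0.201 CPM in the cyrbia animals (log2 fold change −5.82, SE 1.20, edgeR FDR 0.00732). Its groups did not overlap, but animal 14, at 3.06 CPM, was close to the highest cyrbia animal.

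The neighbouring loci MSTRG.12542 and MSTRG.12543 on chromosome 12 shared a pattern in which the demophoon male stood with cyrbia. The annotated MSTRG.12542 had 1772, 1894, 29.5 and 4793 CPM in demophoon animals 13 to 16 and 9.70, 60.3, 16.9 and 23.7 CPM in cyrbia (log2 fold change −6.26, SE 1.07, edgeR FDR 0.00239). The groups overlapped, since the male, animal 15, lay inside the cyrbia range. MSTRG.12543 had 225, 158, 4.84 and 304 CPM in demophoon and 0.855, 0.587, 0.126 and 2.68 CPM in cyrbia (log2 fold change −7.31, SE 1.32, edgeR FDR 0.00331), and here the male was low but above cyrbia.

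This pattern was not seen in the demophoon male at 50%. That male, animal 8, had 1286 CPM of MSTRG.12542 in the anterior hindwing and its female group mates 2222 to 2508 CPM, while the cyrbia males and females had 14.9 to 38.5 CPM. In males alone at 70% the log2 fold change of MSTRG.12542 was −0.09 (edgeR FDR 0.98), and with sex as a covariate it was −4.97 (edgeR FDR 0.0339). MSTRG.12541, the annotated locus before MSTRG.12542 and chosen after its values were seen, had 24.9 ± 6.18 CPM in cyrbia and 32.0 ± 4.68 CPM in demophoon (SD, n = 4 each, edgeR FDR 0.264).

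**Figure D1:**
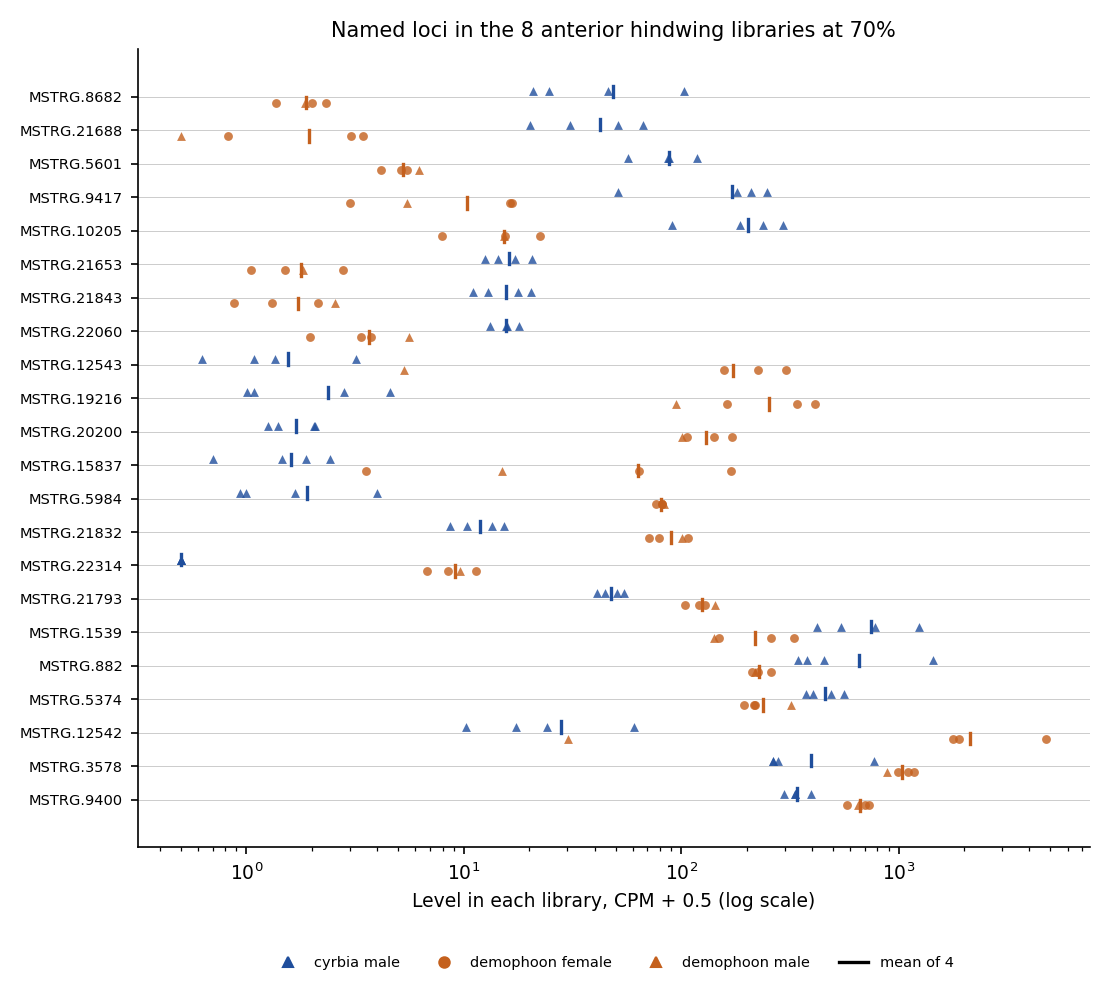
Each row is a locus named in the text, and the points are the levels of the 8 anterior hindwing libraries at 70% (CPM + 0.5, log axis), blue for cyrbia and orange for demophoon, triangles for males and circles for females, with a bar at the mean of 4. The demophoon male lies with the demophoon females at most loci, but at MSTRG.12542 it lies at 29.5 CPM, inside the cyrbia range. All of these loci were DE with this male in its group, and some were chosen for no overlap. The side on which it lies was thus largely set by the choice of loci.

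Of the abundant loci, the annotated MSTRG.1539 on chromosome 2 had 1249, 545, 423 and 779 CPM in cyrbia and 329, 149, 141 and 258 CPM in demophoon. Every cyrbia animal was above every demophoon animal (log2 fold change 1.77, SE 0.38, edgeR FDR 0.0133). Nearly all of its counts came from the later stage, with no count in cyrbia and at most 0.184 CPM in demophoon at 50%. On only 22 demophoon counts it was DE in the opposite direction at 50% (log2 fold change −5.44, edgeR FDR 0.00492). The interaction with stage also passed (7.21, edgeR FDR 0.0244), so this reversal rests on values near 0 at 50%. The call of MSTRG.1539 at 70% ended with sex as a covariate (edgeR FDR 0.0824).

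The annotated MSTRG.882 on chromosome 1 had 343, 1445, 453 and 380 CPM in cyrbia and 225, 258, 218 and 211 CPM in demophoon (log2 fold change 1.52, SE 0.37, edgeR FDR 0.0176). The groups did not overlap, but animal 10 was far above the other cyrbia animals, in the main wing as well (1351 CPM). Its call ended in a fit of the 8 late libraries alone (edgeR FDR 0.0856) and with sex as a covariate (0.0981). The annotated MSTRG.5374 on chromosome 6 had 373, 560, 489 and 405 CPM in cyrbia and 218, 195, 319 and 216 CPM in demophoon (log2 fold change 0.95, SE 0.26, edgeR FDR 0.0338). The demophoon male was the highest of its group, and the call ended when sex entered the fit (edgeR FDR 0.207) and when animal 10, 11, 13, 14 or 16 was left out (0.0672 to 0.0877).

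Lower in cyrbia, the annotated MSTRG.9400 on chromosome 10 had 396, 297, 334 and 334 CPM in cyrbia and 728, 700, 648 and 577 CPM in demophoon. Both groups were tight and did not overlap (log2 fold change −0.96, SE 0.21, edgeR FDR 0.00964, or 0.0692 with sex as a covariate). The annotated MSTRG.3578 on chromosome 4 had 265, 278, 264 and 770 CPM in cyrbia and 1111, 990, 881 and 1176 CPM in demophoon (log2 fold change −1.40, SE 0.42, edgeR FDR 0.0485). Animal 12 was near the demophoon animals, and the call was marginal, since it ended without any single animal other than animal 12 (edgeR FDR 0.0699 to 0.118) and with sex as a covariate (0.204).

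The Z chromosome and chromosome 20, on which the study looked for candidate loci, were described apart from the others. On the Z 99 of 624 loci tested were DE (15.9%), 27 higher and 72 lower in cyrbia, against 1417 of 15357 (9.23%) on the autosomes. The median log2 fold change of the Z loci was −0.23 and that of the autosomal loci 0.00. Among annotated loci the shares were closer, with 29 of 334 (8.68%) on the Z and 6.04% on the autosomes. With sex as a covariate 63 Z loci (10.1%) and 5.23% of autosomal loci were DE. Chromosome 20 had 69 DE loci of 886 (7.79%), 27 higher and 42 lower. The highest share on an autosome was on chromosome 10, with 142 of 1186 (12.0%), and the lowest on chromosome 1 (6.78%). These shares are a description, as no test was made between chromosomes.

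**Figure D2:**
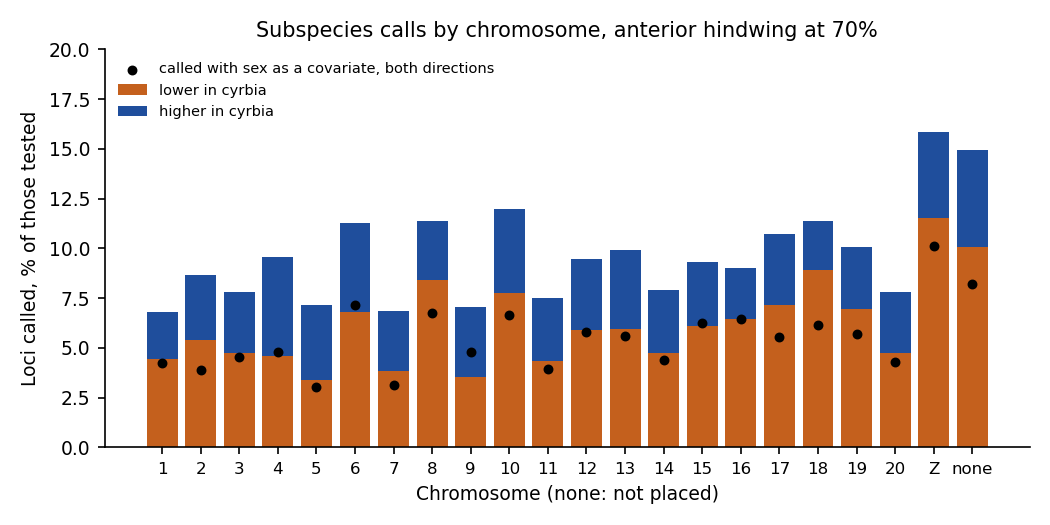
Bars show the percentage of tested loci that were DE on each chromosome, split into loci lower (orange) and higher (blue) in cyrbia, and black points the percentage with sex as a covariate. The Z has the tallest bar, 15.9%, and its point, 10.1%, is also the highest.

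For the level of the Z only annotated loci with a mean log2(CPM + 0.5) above 3 over the 16 anterior hindwing libraries were used. This level was the difference of 2 medians on the log2 scale, that of 173 such Z loci less that of 5132 such loci elsewhere. In cyrbia animals 9 to 12, all with a pair of Z chromosomes by their label, it was −0.058, −0.14, 0.090 and −0.068. In the demophoon females it ran from −0.017 to −0.0038 and in the demophoon male it was 0.0066. The subspecies overlapped, with means of −0.043 ± 0.095 and −0.0059 ± 0.0098 (SD, n = 4 each, two-sided exact permutation p = 0.486, where the smallest p possible is 0.0286).

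On the Z, the lowest FDR was that of the unannotated MSTRG.21832, with 14.9, 8.13, 9.81 and 12.9 CPM in cyrbia and 107, 78.6, 101 and 70.5 CPM in demophoon. No library of 1 group came near the other (log2 fold change −2.96, SE 0.25, edgeR FDR 6.66e-06). At 50% the log2 fold change was −1.20, and the interaction with stage passed narrowly (−1.77, edgeR FDR 0.0497). The annotated MSTRG.21793 had 54.2, 40.7, 44.0 and 50.4 CPM in cyrbia and 121, 128, 143 and 104 CPM in demophoon, with the male the highest. Its log2 fold change was −1.39 (SE 0.14, edgeR FDR 3.11e-05), and −1.60 in males alone. The unannotated MSTRG.22314 had no count in any cyrbia anterior hindwing or main wing at 70% and 7.96, 10.9, 9.14 and 6.31 CPM in the demophoon anterior hindwing (at least 75.4-fold lower, edgeR FDR 1.44e-05).

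Higher in cyrbia on the Z were the annotated MSTRG.21653 and the unannotated MSTRG.21843 and MSTRG.22060. MSTRG.21653 had 16.7, 12.0, 13.9 and 20.1 CPM in cyrbia and 1.01, 0.556, 1.32 and 2.29 CPM in demophoon (log2 fold change 3.60, SE 0.51, edgeR FDR 0.000605). Its levels at 50% were far above those at 70% in both subspecies, at 1272 ± 713 CPM in cyrbia and 703 ± 113 CPM in demophoon (SD, n = 4 each, edgeR FDR 0.246 between them). MSTRG.21843 had 12.5, 10.6, 17.3 and 20.0 CPM against 0.374, 0.806, 2.06 and 1.65 CPM (log2 fold change 3.63, SE 0.52, edgeR FDR 0.000645). MSTRG.22060 had 15.4, 17.4, 12.8 and 15.2 CPM against 2.85, 3.27, 5.11 and 1.46 CPM (log2 fold change 2.26, SE 0.34, edgeR FDR 0.000903). In both of these the demophoon male was the highest demophoon animal and still below every cyrbia animal. In males alone the log2 fold change was 3.57 for MSTRG.21653, 2.87 for MSTRG.21843 and 1.57 for MSTRG.22060, the last being clearly smaller than with the females.

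The unannotated Z locus MSTRG.21985, which the study's text names, had 7.94, 9.58, 5.09 and 8.59 CPM in cyrbia and 17.5, 14.4, 18.5 and 24.1 CPM in demophoon. The groups did not overlap and the male lay within the demophoon females (log2 fold change −1.25, SE 0.26, edgeR FDR 0.00798). With sex as a covariate the log2 fold change was −1.45 (edgeR FDR 0.0158), and in males alone −1.24 (edgeR FDR 0.16).

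On chromosome 20 the unannotated MSTRG.21463 was at nearly the same level in every animal of a subspecies, with 1.17, 0.958, 0.755 and 0.839 CPM in cyrbia and 44.4, 40.9, 39.9 and 41.1 CPM in demophoon. It was 44.6-fold lower in cyrbia (log2 fold change −5.46, SE 0.25, edgeR FDR 7.29e-09). At 50% it had 0.931 ± 0.298 and 43.9 ± 6.99 CPM (SD, n = 4 each). The annotated MSTRG.20388 had 0.562, 0.309, 0.881 and 0.403 CPM in cyrbia and 17.5, 5.38, 21.8 and 13.5 CPM in demophoon (log2 fold change −4.78, SE 0.55, edgeR FDR 0.000116).

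Higher in cyrbia on chromosome 20 were the unannotated MSTRG.21308 and MSTRG.21007. MSTRG.21308 had 6.47, 11.2, 8.11 and 8.65 CPM against 2.25, 2.39, 1.96 and 3.34 CPM (log2 fold change 1.79, SE 0.30, edgeR FDR 0.00224). MSTRG.21007 had 9.53, 2.72, 3.84 and 2.68 CPM against 0.585, 0.50, 0.508 and 0.114 CPM (log2 fold change 3.45, SE 0.66, edgeR FDR 0.00734). Neither locus overlapped between groups, although animal 9 stood apart in MSTRG.21007.

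Some DE loci lay side by side on chromosomes. Of 1504 DE loci with a next tested locus, 225 (15.0%) had a next locus that was DE, beside 9.64% of all loci tested, in the same direction for 159 and in the opposite for 66. Of the 1587 DE loci 1017 were lower in cyrbia, and no test of the neighbours was made. There were 18 runs of at least 3 adjacent DE loci of the same direction, 15 lower and 3 higher in cyrbia, with 59 loci in all. The longest, chosen after its values were seen, was MSTRG.21624 to MSTRG.21628 on the Z. With sex as a covariate only MSTRG.21626 of these loci kept its call (edgeR FDR 0.0028, the others 0.0636 to 0.423). In that run MSTRG.21626 had 0.452 ± 0.223 CPM in cyrbia and 65.1, 54.8, 39.9 and 57.2 CPM in demophoon (log2 fold change −6.83, SE 0.95, edgeR FDR 0.000539). Next to it MSTRG.21625 was at 7.37, 8.32, 0 and 6.86 CPM in demophoon and overlapped with cyrbia in the male, whereas MSTRG.21627 had 5.65 to 9.25 CPM in demophoon and no count in cyrbia. MSTRG.21628 was uneven in demophoon, at 77.9, 0.139, 0.135 and 18.7 CPM, and had no count in cyrbia. A run of 4 on chromosome 8 ended with MSTRG.7189, at 0.0157 ± 0.0315 CPM in cyrbia and 10.6 ± 0.806 CPM in demophoon (SD, n = 4 each, log2 fold change −9.77, SE 0.85, edgeR FDR 8.06e-06).

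The 50% anterior hindwing asked whether the difference was already present earlier, in animals of which none was used at 70%. At that stage 1871 of 16457 loci were DE between subspecies (11.4%), 784 higher (4.76%) and 1087 lower (6.61%) in cyrbia. Of the 1587 loci at 70%, 792 were also DE at 50%, 785 in the same direction (224 higher and 561 lower) and 7 in the opposite one. The 785 loci were 49.5% of the list at 70% and 42.0% of that at 50%. The sign of the fold change was the same at 50% for 1466 of the 1587 loci (92.4%) and for 67.5% of all loci tested.

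**Figure D3:**
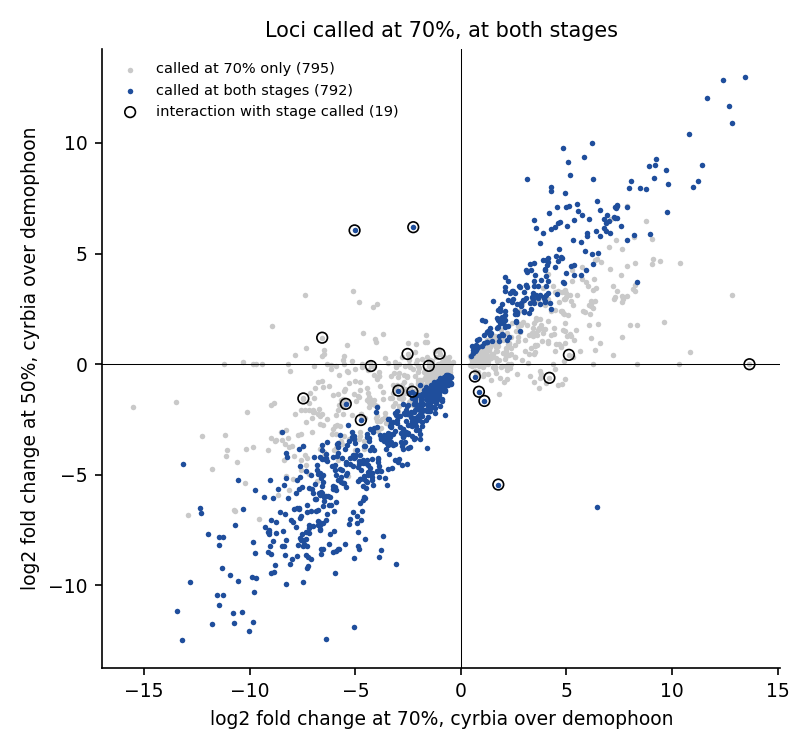
Each point is 1 of the 1587 loci DE at 70%, with its log2 fold change of cyrbia over demophoon at 70% on the x axis and at 50%, in other animals, on the y axis. Most points lie in the lower left and upper right, the 792 blue points were DE at both stages, and circles mark the 19 for which the interaction with stage passed.

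The difference itself changed between stages at 31 loci by the interaction (0.188% of 16457), 13 shifted upward in cyrbia towards 70% (0.079%) and 18 downward (0.109%). Of these 9 were DE at 70% only, 12 at 50% only, 4 at both stages in the same direction and 6 at both in opposite directions. The count was 5 to 20 when any 1 of animals 1, 2, 4, 5, 6, 7, 9, 11, 12, 13, 14 and 15 was left out, with 5 without animal 6. The cyrbia animals were of both sexes at 50% and all male at 70%. This contrast therefore also carries a change of sex in cyrbia, and the count with sex as a covariate is given below. The unannotated MSTRG.7776 on chromosome 8 had 0.122, 0.155, 0.252 and 0.0671 CPM in cyrbia at 70% and 6.18, 6.92, 6.90 and 5.21 CPM in demophoon. At 50% cyrbia had 1.58 to 3.31 CPM and demophoon 7.90 to 11.0 CPM. The locus was lower in cyrbia at both stages and more so at 70% (interaction −3.66, SE 0.46, edgeR FDR 0.00802).

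The annotated MSTRG.10240 on chromosome 10 turned its direction, with 0.489, 0.742, 0.252 and 0.537 CPM in cyrbia and 1.83, 1.74, 2.64 and 3.57 CPM in the late demophoon animals (log2 fold change −2.26, SE 0.56, edgeR FDR 0.0267). At 50% it had 0.109 to 0.377 CPM in cyrbia and no count in demophoon (interaction −8.45, edgeR FDR 0.0137). Its level was low throughout, and the call at 70% ended without animal 9, 11, 12, 15 or 16 (edgeR FDR 0.0597 to 0.0693). The interaction of MSTRG.17092 (13.67, edgeR FDR 1.19e-08) rests on the switching counts given above.

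Another 3 interaction loci, MSTRG.17220, MSTRG.11315 and MSTRG.18013, were chosen after their values were seen. The annotated MSTRG.17220 on chromosome 17 had group means of 104 and 111 CPM at 50% in cyrbia and demophoon and of 1.46 and 28.4 CPM at 70%, with no difference called at 50% (edgeR FDR 0.941) and a log2 fold change of −4.26 at 70% (edgeR FDR 0.000464). The unannotated MSTRG.11315 on chromosome 11 went from 29.7 against 70.4 CPM at 50% to 41.9 against 23.2 CPM at 70%, DE in opposite directions. The annotated MSTRG.18013 on chromosome 18 was lower in cyrbia at both stages, 15.5 against 36.8 CPM and 23.4 against 115 CPM.

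In the main wing of the same 8 animals 1420 of 15485 loci were DE between subspecies at 70% (9.17%), 503 higher (3.25%) and 917 lower (5.92%) in cyrbia. As the regions share their animals, the values of the named loci are only set side by side. MSTRG.8682 had a log2 fold change of 5.12 in the anterior hindwing and 3.75 in the main wing, MSTRG.5601 of 4.19 and 3.95, and MSTRG.10205 of 3.77 and 4.28. MSTRG.5984 had −5.82 and −5.91, MSTRG.20200 −6.74 and −6.96, and MSTRG.21463 −5.46 and −6.00. MSTRG.21832 had −2.96 and −1.95, and MSTRG.21793 −1.39 and −1.40.

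The test of whether the subspecies difference depended on the region, with the animal as a block, passed for 1 of 18276 loci (0.00547%), and 710 loci had an unadjusted p below 0.05. No value of the loci above was therefore shown to be particular to the anterior hindwing. The locus that passed was the unannotated MSTRG.18686 on chromosome 18. It had 164 CPM in the anterior hindwing of animal 11 and no count in the other 7 libraries of that region at 70%, and in the main wing it had 152 CPM in animal 16 and no count in the other 7. The adjacent annotated MSTRG.18685, chosen after its values were seen, had 3.65 CPM in that library of animal 11 and 106 to 294 CPM in the other 7, and in the main wing 2.12 CPM in animal 16 and 94.2 to 260 CPM in the others. The call of MSTRG.18686 ended without animal 11 or without animal 16 (edgeR FDR 1 for each). Over all loci the test passed for 4 without animal 10, 2 without animal 12 and 0 without animal 16. Between the regions themselves, 46 loci were DE in cyrbia (0.252%) and 67 in demophoon (0.367%) at 70%.

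Sex was compared within subspecies and stage groups, where the cyrbia animals at 50% were 2 males and 2 females and demophoon had 1 male and 3 females at each stage. In the anterior hindwing 0 of 16457 loci passed for sex by edgeR (0.0%), with 631 loci at an unadjusted p below 0.05, 248 of them higher in males, and DESeq2 called 32. Sex was then added to the fit as 1 term shared by both stages and subspecies, with no cyrbia female at 70% to inform it. With this term 905 loci were DE between subspecies at 70% (5.5%), 305 higher (1.85%) and 600 lower (3.65%) in cyrbia. Of the 1587 loci, 830 kept their call, 255 of the 570 higher and 575 of the 1017 lower ones. All 1587 kept their sign. As the list was called from these same libraries, a kept sign, here or in males alone, is no separate support for it. With the 4 cyrbia males set against the demophoon male alone 315 loci were DE (1.91%), 65 higher (0.395%) and 250 lower (1.52%), with the lone male assumed to vary like the other groups, and 1568 of the 1587 kept their sign. Of the 37 named loci that were DE between subspecies, 6 lost their call with sex as a covariate and 22 in males alone.

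A locus where the demophoon sexes differed completely, chosen after its values were seen, was the annotated MSTRG.14928 on chromosome 15, which spans 3 gene models. It had 85.6, 77.3 and 75.2 CPM in the demophoon females, 0.203 CPM in the demophoon male and at most 0.155 CPM in cyrbia (log2 fold change −10.37, SE 2.24, edgeR FDR 0.00963). At 50% the demophoon females had 110 to 119 CPM and the male 0, and the animals labelled cyrbia males and females at most 0.131 CPM. Both animals labelled cyrbia females, at 50%, were thus as low as the males, whether their sex labels are right was not tested, and each comparison of sex rests on the labels. With sex as a covariate its subspecies call ended (log2 fold change −2.83, edgeR FDR 0.545). The adjacent MSTRG.14929 had 7.79, 6.23 and 6.77 CPM in the demophoon females and no count in the male or in cyrbia.

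Each animal was also left out in turn, and its levels at the loci DE among the other animals were set against the means of both subspecies. The left-out animal was nearer its own subspecies at 77.1% (982 of 1274 loci, animal 9) to 89.6% (926 of 1034, animal 13) of these loci. The demophoon male, animal 15, was nearer the demophoon females than the cyrbia males at 938 of 1121 loci (83.7%), within the range of the female demophoon animals, 79.2% to 89.6%. For cyrbia animals the share was smaller at loci called higher in cyrbia (60.8% to 70.4%) than at loci called lower (86.9% to 93.6%). In demophoon it was 82.2% to 93.1% and 77.8% to 88.0%.

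**Figure D4:**
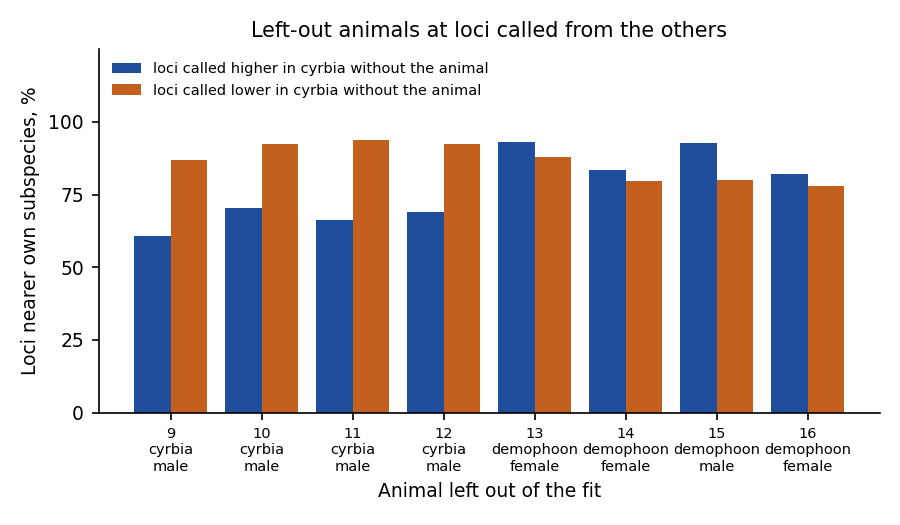
For each animal left out of the fit, bars give the percentage of loci DE among the other animals at which its level was nearer the mean of its own subspecies, for loci called higher (blue) and lower (orange) in cyrbia. The demophoon male, animal 15, has bars of 92.7% and 80.1%, in the range of the demophoon females.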

How the data were processed

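Per the labels and the methods of the study, the anterior hindwing of each pupa was cut out and sequenced as its own library. The authors used Trimmomatic (v. 0.38) for trimming, HISAT2 (v. 2.1.0) for alignment, SAMtools (v. 1.9) and, for transcript assembly, StringTie (v. 1.3.5), which derives counts from coverage and can divide reads between adjacent loci in a different way in each library. The authors deposited raw counts per locus, not normalised, for 24118 loci (13055 with a gene model, 1784 of these with a gene model ID and no assembly number). The sources used here do not state the genome build, the annotation version or strand. A RefSeq table of 14137 genes held none of the IDs. Chromosomes were read from the gene model IDs that hold them. The other loci, the unannotated ones and some annotated ones, were placed between loci with such IDs (10853 of 10853 loci with such IDs placed right when tested, 815 loci unplaced).

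Subspecies, stages and their interaction were tested in 1 fit of group means to the 16 anterior hindwing libraries with edgeR (v. 4.0.16, limma v. 3.58.1, R v. 4.3.3), using TMM, the filterByExpr filter, quasi-likelihood F tests (robust) and Benjamini-Hochberg FDR over all loci tested. Which libraries the study fitted together is not stated. Regions were compared over all 32 libraries with a block per animal, as each animal gave both regions, and sex as a term added to the group means. Positive values are higher in cyrbia. CPM used TMM-scaled library sizes, and SE was taken from the fold change and its F statistic. Levels of left-out animals were compared on the log2(CPM + 0.5) scale. The scripts were tested on simulated counts.

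Named loci were the DE loci with the highest CPM among those at 0 in 1 subspecies (4 each way), the largest changes among non-overlapping loci at 1 CPM or more in both (5 each way), the highest CPM (3 each way), the lowest FDR on the Z (3 each way) and chromosome 20 (2 each way), the 3 lowest interaction FDRs, and MSTRG.21985. The comparison and these rules were chosen with earlier results of these data known. Each animal was the replicate, so p-values measure the spread between animals.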

Additional observations from a re-analysis of the deposited data

Results flagged for a closer look

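Single animals stood apart from the other 3 of their group (a gap to the nearest animal above Dixon's 95% limit) in 7 of 75 groups of named loci checked. Among these loci MSTRG.14928 was chosen after its values were seen, and MSTRG.18686 for an interaction that rests on single animals. The count can therefore not be set against a chance rate. In the anterior hindwing at 70%, cyrbia animal 10 had 77.6 CPM of MSTRG.9861, 1445 CPM of MSTRG.882 and 0.155 CPM of MSTRG.14928, where the other 3 had no count of the last. Cyrbia animal 12 had 770.0 CPM of MSTRG.3578, animal 9 had 9.53 CPM of MSTRG.21007 and animal 11 had 164 CPM of MSTRG.18686, which had no count in the other 3. The demophoon male, animal 15, had 0.203 CPM of MSTRG.14928 against 75.2 to 85.6 CPM in the females.

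The subspecies difference differed between stages, by the edgeR interaction, for MSTRG.17092 (13.67 on the log2 scale, FDR 1.19e-08), MSTRG.7776 (−3.66, FDR 0.00802) and MSTRG.10240 (−8.45, FDR 0.0137). Between wing regions it differed for MSTRG.18686 (26.88, edgeR FDR 0.00798), a fitted value that depends on counts of 0 and rests on 1 library in each region.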

How the results depend on the processing

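The subspecies counts at 70% (1587 loci, 570 higher and 1017 lower in cyrbia) moved most with the tool and in fits that dealt with sex. Some of the latter also had fewer libraries, so their counts do not measure sex alone. DESeq2 gave 3059 (1393 and 1666), sex as a covariate 905 (305 and 600), males only 315 (65 and 250), and the 8 libraries of the stage with sex as a covariate 276 (40 and 236). With both regions summed per animal, an alternative chosen after seeing the data, 959 were higher. Leaving out 1 animal gave 1034 to 1279 loci, 315 to 480 higher and 709 to 869 lower, with the fewest in all without animal 13 (318 higher) and 315 higher without animal 15. The 8 libraries alone gave 1202, no filter on low counts 1372, thinning to the smallest library 1360 and RLE factors 1585.

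The interaction with stage (31 loci, 13 and 18) gave 435 (182 and 253) with DESeq2, 14 (7 and 7) with no filter and 16 (7 lower) with sex as a covariate. Leaving out 1 of the 16 animals gave 5 to 33 (3 to 15 and 2 to 21), with the fewest without animal 6. The interaction with region (1 locus) gave 0 with no replicate block, 0 with only the 16 libraries of the stage, 0 without loci that switched between regions, and 0 to 4 (0 to 1 higher and 0 to 3 lower) when 1 animal was left out. Sex (0 loci) gave 32 with DESeq2 (10 higher and 22 lower in males). In the main wing (1420, 503 and 917) sex as a covariate gave 693 (188 and 505). The causes were not tested. No paired analysis was possible because no animal belongs to both subspecies or both stages. Only the wing regions are paired within animals.

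Of 629 values of named loci under the alternatives 553 kept their direction and their side of the threshold and 0 reversed. Of 37 named loci DE between subspecies, 22 lost their call in males only, 22 with the 8 libraries and sex, 6 with sex as a covariate, and 4 without at least 1 animal. With 4 animals a group and totals from 15955785 counts, the precision is limited, and the partial confounding of sex with subspecies at 70% bears on every subspecies count above.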
